A study of Mus musculus with 10 samples.

Results

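The genes described here are those of oxidative phosphorylation and of the citrate cycle. Members were the genes whose pathway annotation in the deposited table holds KEGG pathway ko00190 (oxidative phosphorylation) or ko00020 (citrate cycle). The 24 genes of the vacuolar proton pump, which acidifies lysosomes, were left out of the 149 genes with either pathway, so that 125 of the 21959 genes in the table remained. Of these, 96 carried ko00190 and 33 carried ko00020, with 4 in both. They were split into 3 isoforms of complex IV known from muscle (Cox6a2, Cox7a1 and Cox8b), 10 genes restricted to other tissues or conditions and the remaining 112 nuclear genes, called nuclear general here although 3 of them (Csl, Cyct and 4933405O20Rik) had few or no reads in these tumors. The 13 protein genes of the mitochondrial genome are in the table, but none carries either pathway there, and they are described beside the members.

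The samples were 10 mammary tumors, each sequenced as an mRNA library. Tumors had been raised from 4T1 cells, a mouse triple-negative breast cancer line, placed under the abdominal skin of female BALB/c mice that were 5 to 6 weeks old when obtained. The 5 mice of the exercise group (E) ran on wheels of their own accord and the 5 mice of the non-exercise group (NE) had no intervention, and tumors were taken at day 21. Every tumor of both groups therefore comes from 1 cell line in 1 strain, and the labels distinguish the replicates of a group by number alone. In whole tumors, fewer cells of a type and less RNA per cell cannot be told apart.

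The citrate cycle oxidizes acetyl-CoA in the mitochondrial matrix and passes electrons to complexes I and II of the respiratory chain. Complexes I, III and IV pump protons across the inner membrane as electrons move to oxygen, and complex V, the ATP synthase, uses the gradient to make ATP. The core subunits of complexes I, III, IV and V are encoded partly by the mitochondrial genome and partly by nuclear genes, while complex II and the citrate cycle enzymes are wholly nuclear. Tumor cells also draw citrate out of the cycle, where Acly turns it into acetyl-CoA for lipid synthesis.

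Counted reads ranged from 15045613 to 20646763 per tumor in E and from 18706032 to 23092251 in NE. The 8 epithelial markers checked against the label of a mammary tumor were Epcam, Cdh1, Krt7, Krt8, Krt18, Krt19, Cldn7 and Esrp1. They summed to 20.5 to 51.7 CPM, counts scaled to a common library size. Krt19 had the highest single value, 23.7 CPM, and 4 of the markers had too few reads to be tested. At these low levels the markers do not bear out an epithelial identity, and the origin of the tumors is taken from the methods. The 6 macrophage markers summed to 468 to 1867 CPM, the 5 fibroblast markers to 896 to 11460 CPM, the 4 endothelial markers to 101 to 183 CPM, and the 5 neutrophil markers to 8.75 to 270 CPM, with the highest sums of all 4 lists in tumor E5. The 14 skeletal muscle markers, among them Acta1, Ckm and Myh4, took 0.0526% or less of all reads in E3, E5, NE1 and NE5, between 0.0584% and 0.447% in E1, E2, E4, NE2 and NE3, and 2.97% in NE4. NE4 therefore stood apart from the other 9 tumors in muscle RNA. The 5 white fat markers were highest there too, at 31.5 CPM against at most 9.13 CPM in the other tumors. The comparisons of the groups are given with and without NE4.

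No member differed between exercised and non-exercised mice by the criterion for a call, which was a fold change of at least 2 with a false discovery rate (FDR) of at most 0.05 in edgeR's quasi-likelihood test. None of the 13517 genes tested was called (0%), with a smallest FDR of 0.897. DESeq2 also called none. At an unadjusted p of at most 0.05, edgeR found 4 of the 115 members tested lower in E and 0 higher. DESeq2 gave 4 members at that threshold too. Over all genes tested, 2.29% were lower and 2.57% higher in E at the same threshold, so the members' share of lower genes was near the background. Leaving out each tumor in turn moved the number of members at that threshold to 0 without E4 or E5, to 1 without E3 or NE4, to 2 without E2 and to 9 without NE1. The share of all genes is given below for the fit without NE4 and was not taken for the others, so their counts have no background beside them.

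The members shared a small difference in the same direction, however. The fitted log2 fold change (E over NE) was below 0 for 104 of the 115 members, or 90.4%, against 54.0% of all genes tested. Its median over the 109 nuclear general members tested was -0.131, against -0.014 over all genes. Each complex had a median below 0, at -0.131 for complex I (37 genes), -0.123 for complex II (4 genes), -0.173 for complex III (9 genes), -0.088 for complex IV (11 genes), -0.107 for complex V (15 genes) and -0.139 for the citrate cycle (25 genes).

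This difference was small once tumor NE4 was left out. Without NE4, the median log2 fold change of the nuclear general members was -0.011, with 68 genes below 0 and 41 above, while that of all genes was -0.004 with 51.3% below 0. By complex the medians then lay at -0.003 for complex I, 0.022 for complex II, -0.001 for complex III, -0.010 for complex IV, -0.016 for complex V and -0.025 for the citrate cycle. With NE4 left out, 0 members were lower in E at an unadjusted p of at most 0.05 in edgeR (2.26% of all genes tested), and 1 member was higher, the muscle isoform Cox7a1 (2.44% of all genes tested).

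**Figure D1:**
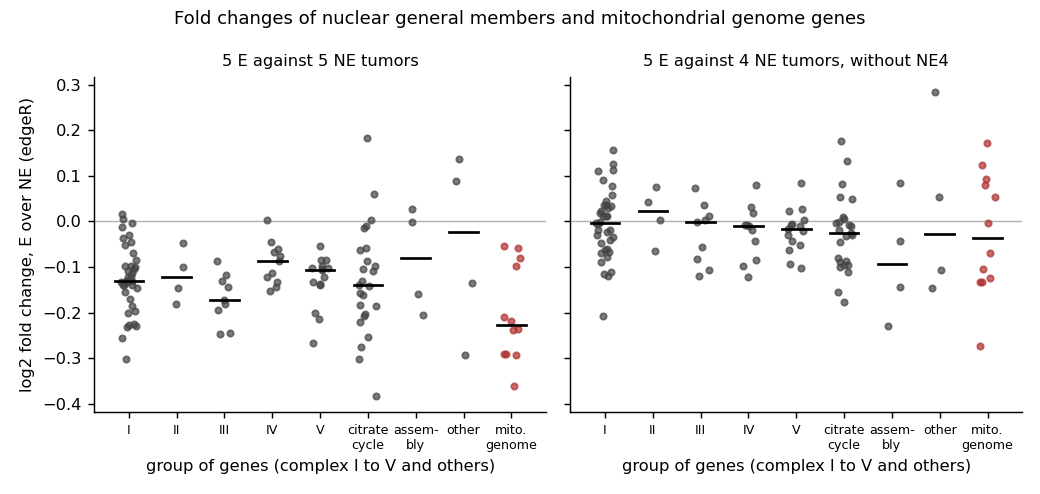
Fitted log2 fold changes (E over NE, vertical axis) of the 109 nuclear general members tested, by complex or group, and of 12 genes of the mitochondrial genome (red), with 1 point per gene and a line at each median. With all 10 tumors (left) the median of complex I is -0.131 and that of the mitochondrial genome is -0.227, and without NE4 (right) they are -0.003 and -0.037.

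The genes below are given as levels in TMM-scaled FPKM, that is, reads per kilobase of the gene length in the table, scaled to a common library size that was corrected by edgeR's TMM factor. Values are listed in the order of replicates 1 to 5, which carry no order among themselves. Means are given with their SD (n = 5).

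Complex I, NADH dehydrogenase, had 37 nuclear general members. Ndufb5, an accessory subunit of the membrane arm, had levels of 9.13, 9.18, 9.23, 8.91 and 7.99 in E and of 9.98, 9.66, 9.27, 13.4 and 9.75 in NE. Its groups did not overlap, although the highest E tumor and the lowest NE tumor lay at 9.23 and 9.27. The log2 fold change was -0.229 (SE 0.102, unadjusted p = 0.0475, FDR 0.897 in edgeR), and without NE4 it was -0.120 with an unadjusted p of 0.0850.

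Ndufs3, a core subunit of the peripheral arm, had levels of 23.0, 22.4, 22.7, 23.1 and 20.1 in E and of 23.8, 23.7, 25.6, 36.3 and 23.5 in NE. Again every E tumor lay below every NE tumor, with 23.1 and 23.5 at the closest, and most of the difference of the means lay in NE4. Its log2 fold change was -0.256 (SE 0.120, unadjusted p = 0.0580 in edgeR), and without NE4 it was -0.116 (unadjusted p = 0.0800). Ndufb5 and Ndufs3 were the only 2 members whose groups did not overlap with E lower, where 0.289% of all genes tested did so. For 0 members was every E tumor above every NE tumor, where 0.436% of all genes were.

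Ndufa4 stood out in NE4 among the nuclear subunits listed here under complex I. This small protein was long counted as part of complex I and is now known from complex IV. Its level was 29.4, 27.5, 33.5, 26.9 and 29.6 in E and 27.3, 28.9, 31.6, 57.7 and 35.8 in NE, so that NE4 was 1.96 times the median of the other tumors. NE4 was the highest of the 10 tumors in 36 of the 37 complex I genes, with Ndufb2 as the exception.

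Complex II, succinate dehydrogenase, belongs to both the respiratory chain and the citrate cycle. Its flavoprotein Sdha had levels of 47.1, 50.6, 51.1, 46.5 and 49.9 in E and of 44.6, 50.2, 52.3, 81.7 and 49.2 in NE. The iron-sulfur subunit Sdhb had levels of 43.2, 43.1, 37.1, 38.2 and 43.2 in E and of 34.9, 41.8, 42.5, 63.4 and 36.8 in NE. For both, the 4 other NE tumors overlapped the E tumors, and NE4 lay above all 9. The membrane anchors Sdhc and Sdhd were also highest in NE4, at 59.3 and 110, with 42.7 to 50.6 and 79.6 to 90.1 in the other tumors. The log2 fold changes of the 4 genes lay between -0.181 for Sdha and -0.047 for Sdhc, with unadjusted p from 0.0818 to 0.618 in edgeR, and without NE4 between -0.066 for Sdhd and 0.075 for Sdhb.

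Complex III, which passes electrons from ubiquinol to cytochrome c, had 9 nuclear members, all highest in NE4. The one with the highest mean level, the small subunit Uqcr10, had levels of 111, 99.0, 100, 104 and 91.8 in E and of 103, 107, 109, 150 and 110 in NE. NE4 was again outside the range of the others, which spanned 91.8 to 111. Uqcrb, which helps to bind ubiquinone, had the smallest p but one in the complex, with a mean of 33.6 ± 4.00 in E and 39.8 ± 7.93 in NE (log2 fold change -0.246, SE 0.136, unadjusted p = 0.0990 in edgeR, and -0.120 without NE4). In the transcript annotation of the reference, 25.5% of the 50-base stretches of Uqcrb also occurred in transcripts of other genes, so its counts are uncertain. The ratio of NE4 to the median of the other tumors lay between 1.31 and 1.73 over the complex, with a median of 1.58.

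Complex IV, cytochrome c oxidase, had 11 nuclear general members. The highest mean level, 171, was that of Cox7a2l, a protein that joins complexes III and IV into supercomplexes, with 174, 167, 190, 160 and 147 in E and 210, 171, 155, 164 and 176 in NE. Here NE4 lay within the range of the other tumors, and NE1 was the highest. Cox8a, the general isoform of subunit VIII, had levels of 99.8, 94.2, 88.0, 92.7 and 84.3 in E and of 102, 94.6, 103, 104 and 99.8 in NE. The groups overlapped and the difference did not rest on NE4, with a log2 fold change of -0.134 (SE 0.056, unadjusted p = 0.0382, FDR 0.897 in edgeR) over all tumors and of -0.121 without NE4 (unadjusted p = 0.0884). Cox5b, a zinc-binding subunit, had a mean of 43.3 ± 2.52 in E and 47.1 ± 5.77 in NE, with 57.2 in NE4.

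The 4 members that build or finish complex IV rather than form part of it were not highest in NE4. These are Cox10 and Cox15, which make its heme A, and the copper proteins Cox11 and Cox17. Cox15 had the smallest unadjusted p of all members, with levels of 8.87, 9.73, 9.74, 8.82 and 8.44 in E and of 9.93, 9.73, 9.79, 10.6 and 10.9 in NE. Its log2 fold change was -0.159 (SE 0.062, unadjusted p = 0.0268, FDR 0.897 in edgeR) and stayed at -0.144 without NE4 (unadjusted p = 0.0598). The highest tumor was NE5 for Cox15, E1 for Cox10 and other tumors than NE4 for Cox11 and Cox17. For Cox10, NE4 lay close to E1, at 9.425 against 9.441. The median ratio of NE4 to the others was 1.02 over the 4 genes. Among the assembly factors that are not members, listed further below, NE4 was the highest tumor in 18 of 37 tested.

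Complex V, the ATP synthase, held the members with the highest levels. Atp5a1, the alpha subunit of its catalytic head, had levels of 298, 294, 287, 284 and 280 in E and of 306, 290, 281, 381 and 295 in NE. Leaving NE4 aside, the tumors lay between 280 and 306 and the groups overlapped. The c ring, which turns as protons pass, is encoded by 3 genes for the same mature protein, and they differed in NE4. Atp5g1 had levels of 13.8, 13.1, 11.6, 11.4 and 12.6 in E and of 12.5, 13.1, 13.2, 22.8 and 13.5 in NE, 1.74 times the median of the others in NE4. The ratio was 1.31 for Atp5g3 and 1.09 for Atp5g2, which alone of the 15 complex V genes was not highest in NE4 and which had 84.2 in NE1 and 81.2 in NE4. Of the 50-base stretches of Atp5g2, 38.3% also occurred in transcripts of other genes.

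In the citrate cycle group NE4 was the highest tumor in 17 of the 25 genes tested. Citrate synthase, Cs, had levels of 62.8, 59.5, 56.2, 55.2 and 60.7 in E and of 61.8, 57.6, 58.2, 84.7 and 62.3 in NE. Idh3a, the catalytic subunit of the NAD-dependent isocitrate dehydrogenase, had levels of 17.9, 19.1, 21.6, 19.4 and 18.6 in E and of 17.9, 20.2, 22.4, 37.2 and 21.3 in NE. In both, NE4 lay above the 9 other tumors, which overlapped between groups. Ogdh (1.39 times the median of the others in NE4), Pdha1 of the pyruvate dehydrogenase complex (1.83), Mdh2 (1.45) and the cytosolic Mdh1 (1.62) were highest in NE4 as well.

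Among the enzymes that were not highest in NE4, some are mitochondrial and some cytosolic. Dlst and Dld, which form the 2-oxoglutarate dehydrogenase complex with Ogdh, had ratios of 1.005 and 0.997. Acly, the cytosolic enzyme that cleaves citrate, had 57.6 in NE4, within the range of 50.7 to 67.4 in the other tumors. Idh1, the cytosolic NADP-dependent isocitrate dehydrogenase, had levels of 40.7, 47.0, 53.0, 52.5 and 53.8 in E and of 30.9, 49.5, 49.6, 36.6 and 51.1 in NE. It had the highest log2 fold change of the nuclear general members, 0.183 (SE 0.146, unadjusted p = 0.235 in edgeR, and 0.133 without NE4), with its lowest levels in NE1 and NE4. Aco1, a cytosolic aconitase that also regulates iron, had 16.8 in NE4 and 14.4 to 18.1 elsewhere. Pck2, which makes phosphoenolpyruvate in mitochondria, had 8.86 in NE4 and 7.02 to 11.8 elsewhere.

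Paralogous enzymes also split. Sucla2, the ADP-using beta subunit of succinyl-CoA ligase, was 1.71 times the median of the others in NE4, while the GDP-using subunit Suclg2 was at 1.04. Ogdhl, a relative of Ogdh known from brain, had 5.11 in NE4, its lowest level, and 6.64 to 8.44 in the other tumors. Idh2, the mitochondrial NADP-dependent enzyme, was at 1.16. The largest ratio among the nuclear general members was that of Pcx, pyruvate carboxylase, which refills the cycle. Its levels were 2.37, 3.0, 2.04, 2.66 and 1.93 in E and 2.64, 1.53, 1.86, 7.17 and 2.46 in NE, a ratio of 3.03 for NE4.

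Fh1, fumarase, was the remaining member at an unadjusted p of at most 0.05, with levels of 23.6, 25.7, 25.7, 24.7 and 22.5 in E and of 24.2, 26.3, 28.1, 34.8 and 27.2 in NE. Its groups overlapped, and its log2 fold change was -0.203 (SE 0.091, unadjusted p = 0.0481, FDR 0.897 in edgeR) over all tumors and -0.111 (unadjusted p = 0.0874) without NE4. Idh3g followed with -0.162 (SE 0.074, unadjusted p = 0.0523) and -0.089 without NE4. Outside the cycle and the complexes, the phosphatases Lhpp and Ppa2 had the next highest log2 fold changes after Idh1, 0.137 and 0.089, with unadjusted p of 0.465 and 0.183, and 0.283 and 0.053 without NE4.

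Over the 109 nuclear general members tested, NE4 was the highest of the 10 tumors in 91, or 83.5%, where it was the highest in 19.7% of all genes tested. It was the lowest in 2 of them, Ogdhl and Ppa2, where it was the lowest in 22.1% of all genes. The ratio of NE4 to the median of the other tumors had a median of 1.40 over these members and of 0.974 over all genes. By group, NE4 was highest in 36 of 37 genes of complex I, 4 of 4 of complex II, 9 of 9 of complex III, 9 of 11 of complex IV, 14 of 15 of complex V, 17 of 25 of the citrate cycle and 0 of 4 of the assembly and heme genes. NE4 was also the tumor with the most skeletal muscle RNA and the highest sum of white fat markers. The part of muscle or fat RNA in these ratios was not tested.

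**Figure D2:**
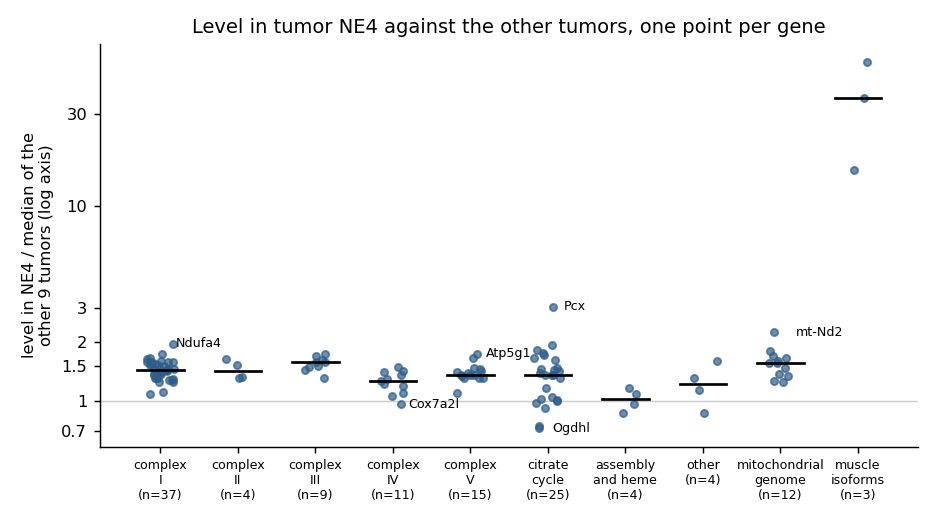
Level in tumor NE4 divided by the median of the other 9 tumors (vertical log axis), with 1 point per gene and a line at the median of each group. Medians are 1.44 for complex I, 1.58 for complex III, 1.02 for the assembly and heme genes, 1.56 for the mitochondrial genome and 36.0 for the muscle isoforms.

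Among the other 9 tumors the nuclear general members varied little. Their coefficient of variation had a median of 6.92%, against 12.1% over all genes tested. The members also had higher levels, with a median of 33.7 against 6.41 over all genes, and this comparison was not matched for level. The median log2 deviation of the members from their own medians ran from -0.084 in E5 to 0.052 in E1, with 0.444 in NE4. Tumor E5 was the lowest of the 10 tumors in 40 of the 109 members. The share of all genes that were lowest in E5 was not taken, so this count has no background beside it. E5 had the fewest counted reads and the highest sums of macrophage, fibroblast, endothelial and neutrophil markers, whose part in these levels was not tested. Reads on the members made up 1.08% to 1.16% of all counted reads in these 9 tumors and 1.44% in NE4. Across the 10 tumors, pairs of nuclear general members had a median Pearson r of 0.696, and across the 9 tumors without NE4 it was 0.155, with medians of -0.004 and -0.002 over pairs of all genes. These correlations share libraries and depth and are given as a description.

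Levels differed widely between members. The complex I subunits Ndufb2 (0.698) and Ndufab1 (2.73) and the copper protein Cox17 (1.96) had low mean levels, and the table gives these genes lengths of 5628, 6883 and 5773 bases, by which the level is divided. Atp5o had a mean level of 1.15 at a length of 1972 bases, and 41.6% of its 50-base stretches also occurred in transcripts of other genes. A comparison of levels between genes therefore depends on the lengths and the counting behind the table.

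The 13 genes of the mitochondrial genome took 1.31% to 2.83% of all counted reads, lowest in E1 and highest in NE4. The gene mt-Co1, the catalytic subunit of complex IV, had the highest level, with 5121, 6529, 7993, 7046 and 5063 in E and 5319, 7463, 7616, 10970 and 7508 in NE. The gene mt-Cytb of complex III had 1525, 2670, 3036, 2917 and 2159 in E and 1602, 3288, 3179, 3727 and 2721 in NE. For mt-Nd1 of complex I the levels were 1421, 2200, 2494, 2326 and 1825 in E and 1422, 1950, 2182, 3423 and 2012 in NE. All 3 genes were low in E1, E5 and NE1, that is, in tumors of both groups, and highest in NE4.

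The same tumors stood out over the 12 genes tested. The median log2 deviation of the mitochondrial genes was -0.613 in E1, -0.345 in E5 and -0.759 in NE1, lay between -0.030 and 0.157 in 6 tumors and was 0.615 in NE4. The nuclear general members were at 0.052 in E1 and -0.004 in NE1, and at -0.084 in E5, their lowest value of the 10 tumors. Pairs of mitochondrial genes had a median r of 0.857 across 10 tumors and of 0.820 without NE4, while pairs of a nuclear general member and a mitochondrial gene had 0.443 and -0.101. Without NE4, the coefficient of variation of the mitochondrial genes had a median of 22.0%.

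**Figure D3:**
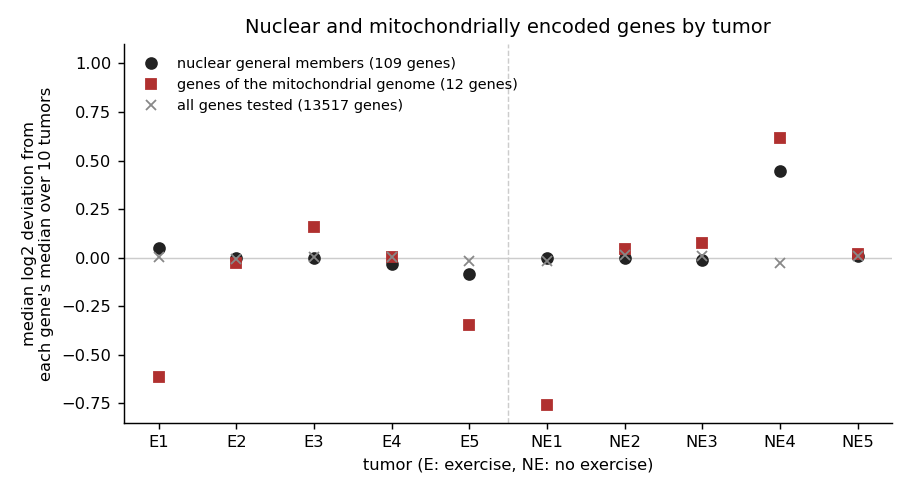
Median log2 deviation from each gene's own median over the 10 tumors (vertical axis), for 109 nuclear general members (black circles), 12 genes of the mitochondrial genome (red squares) and all 13517 genes tested (grey crosses) in each tumor. In E1 and NE1 the mitochondrial genes lie at -0.613 and -0.759 while the nuclear members lie at 0.052 and -0.004, and in NE4 both lie above 0, at 0.615 and 0.444.

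Between the groups, the 12 mitochondrial genes tested had log2 fold changes from -0.362 for mt-Atp6 to -0.053 for mt-Nd4l, with a median of -0.227 and unadjusted p from 0.127 to 0.879 in edgeR. Without NE4 the median was -0.037, with 7 genes below 0 and 5 above. No mitochondrial gene reached an unadjusted p of 0.05 in either direction in these 2 fits. Leaving out NE1, the tumor with the lowest mitochondrial levels, brought mt-Atp6 (log2 fold change -0.499, unadjusted p = 0.0124 in edgeR) and mt-Co1 (-0.391, unadjusted p = 0.0399) below that threshold, and no gene was called. The share of all genes below it without NE1 was not taken.

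Levels of mitochondrial genes relative to each other are uncertain. For mt-Co2, mt-Co3, mt-Atp6, mt-Nd4l and mt-Nd3, 98.0% to 100% of the 50-base stretches also occurred in transcripts of other genes in the mouse annotation, mostly nuclear copies of mitochondrial DNA. Their mean levels over the tumors were 120, 101, 42.4, 3.74 and 27.2, beside 7063 for mt-Co1, although the subunits made from mt-Co1, mt-Co2 and mt-Co3 stand in equal number in complex IV. For mt-Nd4 and mt-Co1 the share was 62.2% and 51.1%, for mt-Nd2 and mt-Nd5 8.19% and 7.61%, and for mt-Nd1, mt-Nd6, mt-Cytb and mt-Atp8 0%. The gene mt-Atp8 overlaps mt-Atp6 and had 0 to 5 reads per tumor. How reads that fit several genes were counted is not given in the sources used here.

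**Figure D4:**
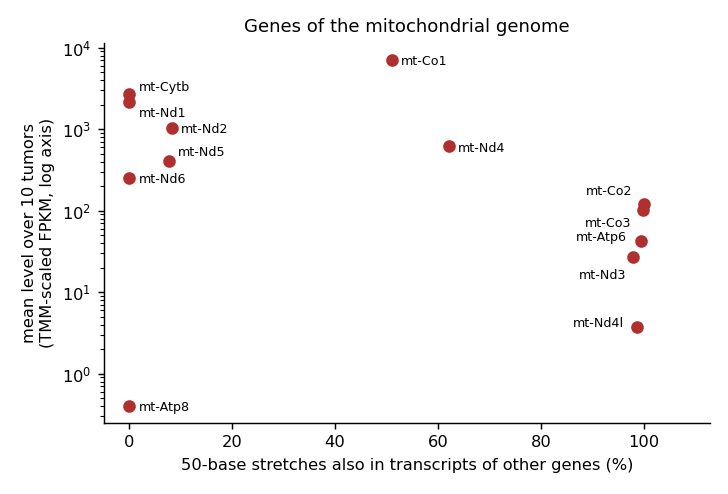
Mean level over the 10 tumors (TMM-scaled FPKM, vertical log axis) of the 13 genes of the mitochondrial genome against the share of their 50-base stretches that also occur in transcripts of other genes (horizontal axis, %). The 5 genes with a share of at least 98.0% have mean levels of at most 120. Of the genes with a share of 0%, mt-Nd1 and mt-Cytb have 2125 and 2682, mt-Nd6 has 254 and mt-Atp8 has 0.408. The highest level, 7063, is that of mt-Co1 with a share of 51.1%.

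The 3 muscle isoforms of complex IV replace a general subunit in muscle and, in part, in brown fat. Cox6a2 takes the place of Cox6a1, Cox7a1 that of Cox7a2 and Cox8b that of Cox8a. Cox6a2 had levels of 8.03, 19.8, 0.940, 3.06 and 2.30 in E and of 0.187, 5.95, 10.2, 110 and 1.19 in NE. Cox8b had levels of 3.59, 7.87, 0.956, 1.19 and 1.09 in E and of 0, 2.10, 4.04, 65.2 and 0.528 in NE, where NE1 held 0 reads, which allows up to 3. Cox7a1 had levels of 2.86, 6.47, 2.11, 3.39 and 3.17 in E and of 1.11, 1.71, 2.72, 41.9 and 2.22 in NE. All 3 were highest in NE4, by 36.0, 55.1 and 15.4 times the median of the other tumors for Cox6a2, Cox8b and Cox7a1, next highest in E2 and lowest in NE1.

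The general partners did not vary in this way. Cox6a1 had 74.0 to 89.7 over the 10 tumors, with 85.9 in NE4, Cox7a2 had 87.3 to 119, with its highest level in NE4, and Cox8a had 84.3 to 104. As a share of both isoforms together, Cox6a2 made up 0.224% to 18.6% in the other 9 tumors and 56.1% in NE4. For Cox8b the share was 0% to 7.71% in the 9 tumors and 38.6% in NE4, and for Cox7a1 it was 1.11% to 6.20% and 26.0%.

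**Figure D5:**
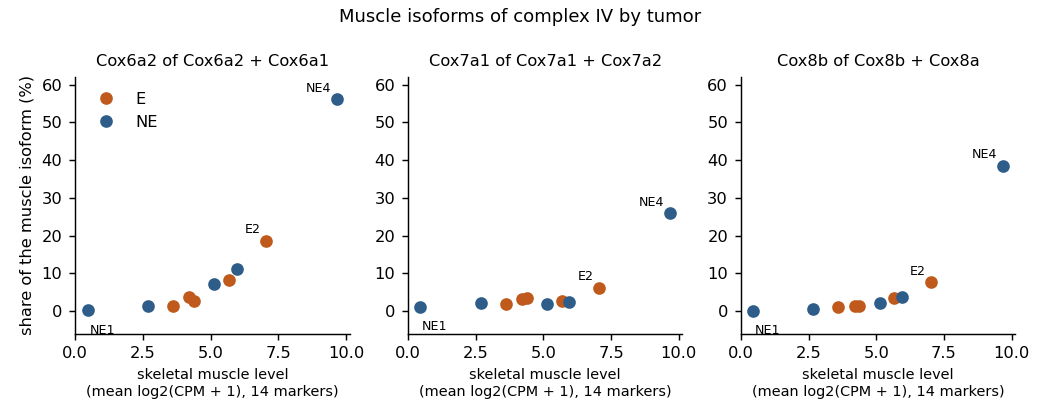
Share of the muscle isoform in the summed level of both isoforms (vertical axis, %) against the skeletal muscle level (horizontal axis, mean log2(CPM + 1) of 14 marker genes) for Cox6a2, Cox7a1 and Cox8b, with 1 point per tumor (orange E, blue NE). NE4 has the highest muscle level, 9.67, and shares of 56.1%, 26.0% and 38.6%, and NE1 has the lowest level, 0.454, and shares of 0.224%, 1.11% and 0%.

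Across the 10 tumors, Cox6a2 and Cox8b followed the level of the 14 skeletal muscle markers, which hold no member. Cox6a2 had a Pearson r of 0.961 (permutation p = 1e-05, the smallest that 100000 permutations can give, 9e-05 after Benjamini-Hochberg adjustment over 9 relations) and a Spearman rho of 0.976 (permutation p = 2e-05, adjusted 9e-05). Without NE1 and NE4, the tumors farthest from the median muscle level, r was 0.970 over 8 tumors (permutation p = 0.0002, adjusted 0.0009). For Cox8b, r was 0.898 (permutation p = 2e-05, adjusted 9e-05), rho 0.988 (permutation p = 1e-05, adjusted 9e-05) and r without the same tumors 0.959 (permutation p = 5e-05, adjusted 0.00045). Correlations within E or NE alone, with 5 tumors each, were not computed.

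Cox7a1 followed the muscle markers less closely. Its r was 0.828 (permutation p = 0.00057, adjusted 0.00171) with a rho of 0.697 (permutation p = 0.03, adjusted 0.09). Without NE1 and NE4 its r was lower, at 0.622 over 8 tumors (permutation p = 0.0934, adjusted 0.28). So few tumors cannot decide whether the relation rested on those 2. The general partners Cox6a1, Cox7a2 and Cox8a had r of 0.247, 0.405 and 0.186 and rho of 0.345, 0.212 and 0.333, with permutation p from 0.239 to 0.606, adjusted 0.539 to 0.677, for r and from 0.332 to 0.56, adjusted 0.632 to 0.752, for rho. Against the 4 brown fat markers, which summed to 0 to 8.32 CPM and of which none had enough reads to be tested, Cox6a2, Cox7a1 and Cox8b had r of -0.234, -0.103 and -0.191 and rho of 0.030, 0.200 and -0.018 (permutation p from 0.458 to 0.677 for r and from 0.585 to 0.973 for rho, adjusted 0.64 to 0.677 and 0.752 to 0.973). The 8.32 CPM of brown fat markers was that of NE5 alone, and the next highest sum was 0.5265 CPM in E1. With values near 0 in all tumors but NE5, these correlations cannot decide on a relation to brown fat. The heart markers were low as well, at 1.53 to 3.26 summed CPM with Nppa at 0 in all tumors. The white fat markers summed to 0.0425 to 9.13 CPM in 9 tumors and to 31.5 CPM in NE4.

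Between the groups, the log2 fold changes of Cox6a2, Cox7a1 and Cox8b were -1.90 (SE 1.35), -1.46 (SE 0.978) and -2.28 (SE 1.41), with unadjusted p of 0.189, 0.164 and 0.135 in edgeR. Without NE4 the signs turned, to 0.661, 0.895 and 0.837, with unadjusted p of 0.531, 0.0397 and 0.399. Tumor NE4 thus decided the direction of the muscle isoforms in this comparison.

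The promoters of the general and the muscle isoforms are shown because the isoforms differed in level and in their relation to the muscle markers. RefSeq promoter sequences of GRCm38 were matched to 103 of the 125 members, among them 96 of the 112 nuclear general members. Each line holds the 175 bases directly before the annotated start, 5′ to 3′ on the strand of the gene, for Cox6a1 (chr5:115348959-115349133, minus strand), Cox7a2 (chr9:79759854-79760028, minus strand), Cox8a (chr19:7217617-7217791, minus strand), Cox7a1 (chr7:30183996-30184170, plus strand) and Cox8b (chr7:140900447-140900621, minus strand). The promoter of Cox6a2 is not shown. Capitals mark the NRF1 core GCATGCGC, the GC box GGGCGG and the CCAAT box on either strand.
Cox6a1: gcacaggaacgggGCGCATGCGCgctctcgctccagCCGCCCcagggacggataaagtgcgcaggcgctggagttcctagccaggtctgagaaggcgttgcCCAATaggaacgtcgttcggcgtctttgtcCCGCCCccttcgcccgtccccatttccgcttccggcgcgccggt
Cox7a2: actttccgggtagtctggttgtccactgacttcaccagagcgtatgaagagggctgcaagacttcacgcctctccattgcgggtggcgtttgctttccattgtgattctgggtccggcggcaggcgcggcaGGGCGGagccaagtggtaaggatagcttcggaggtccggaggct
Cox8a: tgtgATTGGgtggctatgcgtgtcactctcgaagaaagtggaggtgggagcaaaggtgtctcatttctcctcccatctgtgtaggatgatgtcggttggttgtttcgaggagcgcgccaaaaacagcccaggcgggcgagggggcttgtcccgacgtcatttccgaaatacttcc
Cox7a1: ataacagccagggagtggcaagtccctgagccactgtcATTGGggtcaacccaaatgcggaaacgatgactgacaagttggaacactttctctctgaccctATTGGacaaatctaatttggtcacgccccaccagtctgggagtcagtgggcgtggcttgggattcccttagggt
Cox8b: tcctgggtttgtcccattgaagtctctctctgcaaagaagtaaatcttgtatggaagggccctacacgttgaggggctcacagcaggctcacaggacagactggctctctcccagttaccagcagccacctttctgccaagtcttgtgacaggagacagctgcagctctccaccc

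The promoters of the general isoforms were richer in CpG. Within 250 bases before the start, Cox6a1 held 26, Cox7a2 14 and Cox8a 11 CpG dinucleotides, while Cox7a1 held 4 and Cox8b 1. The median was 15 over the 96 nuclear general members and 6 over the 27025 genes with a promoter sequence. The GC content was 62.8%, 54.8% and 52.8% for Cox6a1, Cox7a2 and Cox8a and 51.2% and 47.2% for Cox7a1 and Cox8b, with medians of 58.0% over the nuclear general members and 52.4% over all genes.

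NRF1 and the ETS factor GABP are known activators of nuclear respiratory genes. Searched on both strands of the 250 bases, the NRF1 core GCATGCGC occurred in 10 of the 96 nuclear general members (10.4%) and in 2.56% of all promoters, and in Cox6a1 it occurred on both strands as overlapping matches. The ETS sequence CCGGAAGT occurred in 4 members (4.17%, all promoters 3.23%), the GC box GGGCGG in 45 (46.9%, all 35.4%) and the TATA box TATAAA in 6 (6.25%, all 14.3%). The CCAAT box occurred in 40 (41.7%, all 37.5%), and the MEF2 consensus, bound by a muscle factor, in 0 of the 96, in neither Cox7a1 nor Cox8b, and in 3.42% of all promoters. The NRF1 core and the GC box themselves hold CpG, and the members had a median of 15 CpG against 6 over all promoters. The shares were not matched for CpG. Such matches describe letters in these windows and no binding was measured.

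Of the 10 members restricted to other tissues or conditions, 3 had enough reads to be tested. Ndufa4l2, a relative of Ndufa4 induced by low oxygen, had levels of 5.81, 4.89, 3.64, 3.12 and 9.99 in E and of 1.12, 3.94, 4.39, 9.47 and 7.55 in NE. Its range spanned the groups, with the highest levels in E5 and NE4, and its log2 fold change was 0.050 (SE 0.50, unadjusted p = 0.923 in edgeR) and 0.378 without NE4. Cox4i2, the isoform of subunit IV known from lung and pericytes, had 0.579 to 1.76 in E and 0.377 to 2.04 in NE. Cox7b2, known from testis, had 4.74 to 7.42 in E and 5.17 to 9.12 in NE, with no separation of the groups.

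The other 7 had few reads. Pck1, the cytosolic enzyme of gluconeogenesis that fat and liver also use, had 98 reads in NE4, 30 in E2, 13 in E4 and 0 to 7 in the others. Atp12a had 12 reads in NE5 and 0 in the 9 other tumors. Cox6b2 had 0 to 13 reads, and the stomach proton pump genes Atp4a and Atp4b and the testis gene Pdha2 had 0 to 2 reads per tumor. Cox8c had 0 reads in all 10 tumors, which allows up to 0.199 CPM in the tumor with the fewest reads, as had the nuclear general members Csl and 4933405O20Rik, while Cyct, the testis cytochrome c, had 0 to 5 reads.

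Genes that work with the members but carry neither pathway were compared from 3 lists. Of the 37 assembly factors tested among 42 listed, none reached an unadjusted p of 0.05 in either direction in edgeR (2.29% of all genes were lower and 2.57% higher in E), the median log2 fold change was -0.025 (-0.002 without NE4), and NE4 was the highest tumor in 18 (48.6%). Of the 13 regulators of mitochondrial biogenesis and transcription tested among 15, 1 was lower in E at that threshold, the RNA-binding protein Lrpprc (log2 fold change -0.150, SE 0.063, unadjusted p = 0.0375, FDR 0.897). The median of the 13 was -0.130 (-0.126 without NE4), and NE4 was the highest in 3 (23.1%). Of the 9 carriers and partners tested, none reached an unadjusted p of 0.05, the median was -0.104 (-0.056 without NE4), and NE4 was the highest in 8 (88.9%).

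Some genes of these lists had isoforms that split in NE4 as well. The ADP/ATP carrier Slc25a4, the form known from muscle and heart, had levels of 96.5 to 114 in the other 9 tumors and 267 in NE4, while the general form Slc25a5 had 235 to 282 over all tumors and 258 in NE4. The coactivator Ppargc1a had too few reads to be tested, with levels of 0.0198 to 0.127 in the other tumors and 1.15 in NE4. The 3 regulators tested that were highest in NE4 were Esrra, Ppargc1b and Lrpprc. Esrra had 8.23 in NE4 and 4.66 to 6.11 elsewhere. Ppargc1b and Lrpprc had 0.851 and 12.4 in NE4, close to their next highest levels of 0.829 and 12.2. The regulators Nrf1 and Tfam had 5.11 and 13.6 in NE4, within their ranges of 4.79 to 5.84 and 12 to 16.7 elsewhere.

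The comparison of the groups was also fitted with the muscle RNA as a covariate. With the skeletal muscle level (on the log2 scale) in the model, the median log2 fold change of the nuclear general members was -0.122, and 19 members were lower in E at an unadjusted p of at most 0.05 in edgeR, where 3.09% of all genes tested were. The smallest FDR among them was 0.568. With the percent of reads on the muscle markers in its place, a linear measure chosen after seeing the data, the median was -0.024 and 3 members were lower at that threshold, where 2.26% of all genes tested were. In that fit 1 member, a muscle isoform, was higher in E at the same threshold, where 356 of the 13517 genes tested were. These 2 scales of the same markers gave unlike results, and no member was called with either.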

How the data were processed

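Libraries of 5 E and 5 NE tumors were grouped by the labels. By the methods, alignment was done with Hisat2 and quantification with Stringtie. In the 1 table that the authors deposited, each tumor has an unnormalized read count and an FPKM per gene. How whole-number counts were made and the build of the table are not given in the sources used here, and the methods name a rat reference although the identifiers are of mouse genes. The FPKM deposited are the counts divided by gene length and library total (largest relative deviation 3.78e-14), without TMM. No column lacked a sample.

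Counts were tested with the quasi-likelihood functions of edgeR 4.0.16 in R 4.3.3, after TMM scaling and filterByExpr, with Benjamini-Hochberg adjustment over 13517 genes, by a script tested on simulated data. The SE given with edgeR values is the absolute log2 fold change divided by the square root of the F statistic. Alternatives were DESeq2 1.42.0, its size factors in edgeR, total counts alone, no filter, a replicate block, covariates and leaving out each tumor. The filter passed 115 of the 125 members, and a gene high in 1 group could pass through that group alone. Correlations used log2(CPM + 1) and 100000 two-sided permutations (scipy 1.17.1). In the fits without covariate or block, p-values rest on the spread between the tumors of a group. Those of the correlations come from shuffling the tumors of both groups together. Limits for 0 reads (3 counts) cover counting error only. Shared stretches of 50 bases came from GENCODE transcripts (GRCm38), and the 250 bases before each start from RefSeq (GRCm38.p6).

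The members, the lists and the tests were chosen with earlier results of these data known. Named were the mitochondrial genes, the muscle isoforms and their partners, restricted members, core enzymes, the 2 members with the smallest p and the 1 with the highest level in each complex, and the 3 nuclear members with the largest rise and fall. Cox10, Cox11, Cox15, Cox17, Ndufb2, Ndufab1, Atp5o, Atp5g2, Atp5g3, Aco1, Dlst, Dld, Pck2, Sucla2, Suclg2, Ogdhl, Csl, Cyct, 4933405O20Rik and single genes of the 3 further lists were named after their values were seen. Some members that the rule names are not reported here.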

Additional observations from a re-analysis of the deposited data

Results flagged for a closer look

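In each group of 5 tumors, the highest or lowest value was marked when it lay apart from the next by more than 0.71 of the range of the group, which chance does in about 1 in 20 groups. Of 116 groups of values tested, 33 were past this limit, and 28 of the 33 were NE4. The genes were named in part for a small p or a large fall, a difference to which NE4 contributes, so this number is not to be read against the chance rate. The part of muscle or fat RNA in the NE4 values was not tested.

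Levels (TMM-scaled FPKM) of NE4 far above the other NE tumors were those of the muscle isoforms Cox6a2 (110), Cox7a1 (41.9) and Cox8b (65.2), with shares of 56.1%, 26.0% and 38.6% of both isoforms. In complex II they were those of Sdha (81.7), Sdhb (63.4), Sdhc (59.3) and Sdhd (110). Among the citrate cycle enzymes they were those of Cs (84.7), Idh3a (37.2), Idh3g (42.2), Ogdh (89.9), Mdh1 (77.1), Mdh2 (98.4), Pcx (7.17) and Pdha1 (33.9). In the other complexes they were those of Ndufb5 (13.4), Ndufs3 (36.3), Ndufa4 (57.7), Uqcr10 (150), Cox5b (57.2), Atp5g1 (22.8), Atp5a1 (381) and mt-Co3 (156). The median log2 deviation of the nuclear general members in NE4 (0.444) and the percent of reads on the members in NE4 (1.44%) stood apart in the same way.

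The other 5 values lay below the rest of their group. They were the levels of mt-Nd5 in E1 (248), of Ndufb5 in E5 (7.99), of Ndufs3 in E5 (20.1), and of mt-Atp6 (27.1) and mt-Nd4l (1.43) in NE1.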

How the results depend on the processing

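Under every alternative run, 0 genes were called and the median log2 fold changes of the nuclear general members and of the mitochondrial genes stayed below 0, from -0.132 to -0.024 and from -0.228 to -0.059, and from -0.149 to -0.011 and from -0.352 to -0.037 when each tumor was left out in turn. The 4 members at an unadjusted p of at most 0.05 became 2 with DESeq2's size factors in edgeR, 0 with total counts alone, 19 with the skeletal muscle level as covariate, 0 with the log2 total count as covariate, 0 at a threshold of 0.01 and 0 to 9 when each tumor was left out. The causes were not tested. Of these alternatives, a share of all genes at that threshold is given only without NE4 and with the skeletal muscle level as covariate (3.09% lower in E). The other counts have no background beside them. DESeq2 gave no p for Cox6a2, Cox7a1 and Cox8b, as single tumors far from the others are set aside there.

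Signs turned mostly for fold changes near 0. With the log2 total count as covariate they were 0.003 for mt-Nd1, 0.215 for mt-Nd3, 0.084 for Cox7a2, -0.395 for Ndufa4l2, 0.063 for Sdhc, 0.078 for Pcx and 0.053 for Cox7a2l. With the percent of reads on muscle markers, chosen after seeing the data, they were 0.099 for mt-Nd1, 0.044 for mt-Nd2, 0.138 for mt-Nd3, 0.072 for mt-Nd6, 0.050 for mt-Nd4l, 0.497 for Cox6a2, 0.748 for Cox7a1, 0.685 for Cox8b, 0.056 for Sdhb, 0.031 for Sdhc, 0.059 for Mdh1 and 0.116 for Pcx. With the skeletal muscle level as covariate Cox6a1 was at -0.001, and with total counts alone Acly was at 0.018.

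Leaving out each tumor in turn gave ranges that crossed 0 for Cox6a2 (-2.82 to 0.661), Cox7a1 (-1.78 to 0.895), Cox8b (-3.05 to 0.837), mt-Nd1 (-0.210 to 0.123), mt-Nd2 (-0.450 to 0.079), mt-Nd3 (-0.160 to 0.171), mt-Nd6 (-0.246 to 0.093), mt-Nd4l (-0.252 to 0.075), Cox6a1 (-0.026 to 0.038), Cox4i2 (-0.116 to 0.496), Ndufa4l2 (-0.277 to 0.378), Sdha (-0.238 to 0.003), Sdhb (-0.159 to 0.075), Sdhc (-0.079 to 0.042), Mdh1 (-0.150 to 0.082), Acly (-0.050 to 0.039), Pcx (-0.555 to 0.176) and Cox7a2l (-0.109 to 0.026). Of the 50 named genes tested, 13 turned sign without NE4, more than without any other tumor.

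The study speaks of matched pairs without saying what was matched, and the labels give numbers alone, so the numbers were not taken as pairs. The correlation of the deviations of same-numbered tumors ran from -0.325 to 0.316, and only number 5 correlated best with its own number. With the replicate block, 3 members had an unadjusted p of at most 0.05, the median of the nuclear general members was -0.113, and Cox6a2, Cox7a1 and Cox8b were at -0.133, 0.073 and -0.009. Of the mitochondrial genes, 3 had an unadjusted p of at most 0.05 with the block, against 0 without it. The share of all genes tested at that threshold with the block was not taken, so neither count has a background beside it. The 3 mitochondrial genes were mt-Cytb (log2 fold change -0.225), mt-Atp6 (-0.350) and mt-Nd4 (-0.258), each with an adjusted p of 0.871 in edgeR's quasi-likelihood test over all genes. Each of the 3 was lower in E in 5 of 5 same-numbered tumors, and the other mitochondrial genes tested in 2 to 4 of 5. The 3 were picked by the fit on these same numbers, so the 5 of 5 is no separate support. Tumors E1 and NE1 were both low in mitochondrial genes.

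Among the correlations, leaving out the 2 tumors farthest from the median marker level gave 0.622 for Cox7a1 and -0.094 for Cox7a2 against skeletal muscle, and 0.263, 0.429 and 0.311 for Cox6a2, Cox7a1 and Cox8b against brown fat, where Cox7a1 also had 0.005 on the log2(CPM + 0.1) scale. With 5 tumors a group, of which 1 holds far more muscle RNA, differences of the size seen in the nuclear members could not be told from the spread between tumors.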
